A study of Mus musculus with 8 samples.

Results

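ISG15 conjugation attaches the small ubiquitin-like protein Isg15 to other proteins, and it was followed here through 5 genes: Isg15 itself, the activating enzyme Uba7, the conjugating enzyme Ube2l6, the ligase Herc6 and the protease Usp18. The members were chosen by gene name on the array, and every probe of each was used. The scanner files name 4 of the genes as they are called today, with 5 probes, while the 2 probes of Herc6 carry the older symbol Herc5 and were recognised by their transcript accession, which gives 7 probes in all. All 5 genes were measured, of 31688 gene or transcript names on the array. All 7 probes were well above background on all 8 arrays and were among the 25972 probes tested.

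Isg15 is made of a pair of ubiquitin-like domains and is among the best known products of interferon-stimulated cells. Uba7 activates it with ATP, Ube2l6 receives it as a thioester, and Herc6 transfers it to lysines of target proteins, many of them newly made. Usp18 cleaves it off again, and separately from that activity binds the receptor chain Ifnar2 and dampens signalling by type I interferon. Type I interferon acts through Ifnar1 and Ifnar2, and IFN-λ through Ifnlr1 and Il10rb, a receptor found mainly on epithelial cells. Both lead to a transcription factor complex that binds the interferon-stimulated response element of target promoters.

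The cells were IEC10, immortalized mouse intestinal epithelial cells of a single line, also named Mx2Luc, which came from a mouse that carried firefly luciferase driven by the Mx2 promoter, and all groups share that transgene. They were kept for 21 days on transwell inserts until polarized, and then were left without stimulus (control, 2 arrays, replicates 2 and 3) or received IFN-λ2 at 20 ng/mL (3 arrays) or IFN-β at 500 U/mL (3 arrays) for 9 h. For the control the labels name medium and the paper PBS. Replicate 1 of the control is not part of the arrays used here. The labels do not say whether replicates came from separate cultures, so that p-values measure the spread between these samples, which may be technical. On the 8 arrays, 20991 to 24252 probes were well above background and none was saturated. Each slide carried 1 replicate number and was scanned in 1 run, and each group had its own position on the slide, so that position and treatment cannot be told apart. All 7 epithelial markers examined, among them Epcam and Krt8, were well above background on all arrays, and their sum was 301999 to 316993 normalized gPS units in control, 342057 to 365033 with IFN-λ2 and 304643 to 347922 with IFN-β. Of 6 leukocyte markers, Itgam, Cd3e and Cd68 were so on all 8 arrays, Ptprc and Cd79a on 2 and Lyz2 on 1. The summed signal of the list was 6152 to 8635 units in control, 2388 to 3965 with IFN-λ2 and 3185 to 11057 with IFN-β. That sum was nearly all Itgam, which averaged 7122 units in control, 2870 with IFN-λ2 and 6710 with IFN-β. Cd3e, the next highest, averaged 156 to 182 units over the groups, and Cd68 averaged 47.1 units in control and 63.6 with IFN-λ2. Of 3 endothelial markers, Kdr was well above background on all 8 arrays, Pecam1 on 7 and Cdh5 on 0, and their sum was 813 to 997 units in control, 814 to 964 with IFN-λ2 and 904 to 938 with IFN-β. Of 4 mesenchymal markers, Vim was so on all 8 arrays, Col1a2 on 6, Col1a1 on 4 and Pdgfrb on 0. That list, led by Vim, summed to 11985 to 15180 units in control, 6703 to 8540 with IFN-λ2 and 14044 to 15765 with IFN-β. The part of these shifts in the results was not tested.

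Values are given in normalized gPS units, the scanner's background-subtracted signal scaled so that the 75th percentile of each array is 1500. Because the strength of a probe depends on its sequence, levels are compared between groups for 1 probe and never between probes. Isg15 and Herc6 have 2 probes each, and probe 1 is the one with the higher mean signal. The array files place the probes on mm9, and the exon or UTR in which each lies was not analysed here. Isg15 probe 1 lies at chr4:155573649-155573708 and probe 2 at chr4:155573533-155573552, Uba7 at chr9:107886328-107886387, Ube2l6 at chr2:84649861-84649920 and Usp18 at chr6:121220874-121220933. Herc6 probe 1 lies at chr6:57568608-57568667 and probe 2 at chr6:57612406-57612719. The interval of Isg15 probe 2 covers 20 bases and that of Herc6 probe 2 spans 314, although each probe is 60 bases long.

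The 2 Herc6 probes are shown because they gave different answers to the comparison of the cytokines, and Isg15 probe 2 because it shares no run longer than 7 bases with Isg15 probe 1 and is a separate stretch of the transcript. They are printed 5′ to 3′ as in the array files, all in lower case because no part of them is singled out.
Isg15 probe 2: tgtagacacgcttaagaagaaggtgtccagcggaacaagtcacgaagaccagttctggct
Herc6 probe 1: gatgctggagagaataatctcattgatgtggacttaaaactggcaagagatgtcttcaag
Herc6 probe 2: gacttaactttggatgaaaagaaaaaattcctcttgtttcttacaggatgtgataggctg
The longest run shared by the Herc6 probes is 7 bases, so that they also sample separate parts of the transcript. Isg15 probe 1 is not specific by sequence. It shares a run of 35 bases with the probe for Gm9706, an Isg15-like gene at chr17:46543886-46543945 on mm9. The aligned 30 bases of both probes are shown with the 26 bases of the shared run in capitals.
Isg15 probe 1, bases 31 to 60: GCCAGTGTTGGTTATAAAAGATGATGgggg
Gm9706 probe, bases 10 to 39: GCCAGTGTTGGTTATAAAAGATGATGcaat
RNA of either gene may therefore contribute to either of these probes, which the arrays cannot separate. Whether the Gm9706 transcript also matches Isg15 probe 2 was not tested.

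The promoters were read because the members moved together under both cytokines. The RefSeq promoter table used here (GRCm38.p6) was matched for 4 of the 5 genes, Isg15, Uba7, Ube2l6 and Herc6, and the promoter of Usp18 was not analysed here. The 250 bases before each start were searched on both strands for the core of the interferon-stimulated response element, GAAANNGAAA, for the shorter core bound by interferon regulatory factors, AANNGAAA, and for the gamma-activated site, TTCNNNGAA. Every match of the first motif holds a match of the second. Among all 32851 promoters, 2.98%, 21.3% and 7.02% hold the 3 motifs in this window. Isg15 has 3 overlapping matches of the long core on its own strand, beginning 78, 72 and 66 bases before the start, and a further match of the short core on the other strand, 128 bases before the start. Uba7 has a match of the short core on the other strand, 27 bases before the start. In Ube2l6 and Herc6 none of these motifs occurs in the window, and no match of the gamma-activated site occurs in any of the 4. The windows of Isg15 (chr4:156200819-156201068, minus strand) and Uba7 (chr9:107975317-107975566, plus strand), the 2 with a match, are printed 5′ to 3′ along the gene with the matched bases in capitals.
Isg15: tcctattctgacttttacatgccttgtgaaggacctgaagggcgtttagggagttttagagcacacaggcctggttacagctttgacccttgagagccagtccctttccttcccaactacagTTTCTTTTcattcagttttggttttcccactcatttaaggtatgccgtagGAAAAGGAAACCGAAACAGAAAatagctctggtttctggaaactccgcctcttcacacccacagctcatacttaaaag
Uba7: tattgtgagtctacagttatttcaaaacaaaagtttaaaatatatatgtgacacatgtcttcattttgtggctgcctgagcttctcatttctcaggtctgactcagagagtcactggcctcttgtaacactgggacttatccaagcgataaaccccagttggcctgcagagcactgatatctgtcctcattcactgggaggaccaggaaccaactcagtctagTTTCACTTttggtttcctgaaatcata
A match describes the letters and is not a measured binding site.

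The first comparisons asked which members responded to each cytokine. Each cytokine raised all 7 probes above control by limma with Benjamini-Hochberg adjustment over all probes tested. For comparison, 10.0% of all probes were called higher with IFN-λ2 and 1.44% with IFN-β. The methods' 2-group test, taken at an adjusted p under 0.05 and unlike limma estimating the spread of each probe alone, called all 7 probes with IFN-λ2 but 3 of 7 with IFN-β, both probes of Isg15 and Herc6 probe 2. That test called 3.80% of all probes higher with IFN-λ2 and 0.326% with IFN-β. It did not call Usp18, Herc6 probe 1, Ube2l6 or Uba7 with IFN-β (adjusted p = 0.0519, 0.0542, 0.0899 and 0.104 from that test). With the limits on unadjusted p and on fold that the methods also set, it called 6 of 7 probes with IFN-λ2, all but Uba7, and the same 3 with IFN-β, against 1.17% and 0.299% of all probes called higher. No treated array overlapped a control array for any member, which held for 24.7% of all probes with IFN-λ2 and for 15.1% with IFN-β. The median log2 change over the 7 probes was 2.52 with IFN-λ2 and 2.34 with IFN-β, against medians of 0.00083 and 0.016 over all probes. Both comparisons use the same 2 control arrays. In these bulk samples, more RNA per cell and more responding cells cannot be told apart.

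Isg15, the modifier itself, had 12970 and 10203 normalized gPS units on the control arrays by probe 1. It had 153336, 166143 and 145051 units on the IFN-λ2 arrays of replicates 1, 2 and 3, and 148803, 153558 and 140251 units on those of IFN-β. The treated arrays stood an order of magnitude above control and interleaved with each other. The change with IFN-λ2 was 13.4-fold, or 3.75 ± 0.12 on the log2 scale (standard error, adjusted p = 4.74e-06 from limma). With IFN-β it was 12.8-fold, or 3.68 ± 0.12 (standard error, adjusted p = 7.14e-06 from limma).

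Isg15 probe 2 had 809 and 694 units in control, 12107, 13202 and 11681 with IFN-λ2, and 12145, 11937 and 11431 with IFN-β. IFN-λ2 raised it 16.4-fold and IFN-β 15.8-fold (adjusted p = 1.78e-06 and 3.86e-06 from limma). The order of the groups was the same as for probe 1. The log2 change of probe 2, taken within arrays, exceeded that of probe 1 by 0.29 with IFN-λ2 and by 0.30 with IFN-β. The SD of the within-array difference of the probes was 0.089 over the 2 control arrays, 0.014 over the IFN-λ2 arrays and 0.040 over the IFN-β arrays, and a two-sided exact permutation test over arrays gave p = 0.1 for both, the smallest p that 3 against 2 arrays allow. The Gm9706 probe, which shares bases with Isg15 probe 1, had 494 and 426 units in control, 8254 to 9370 with IFN-λ2 and 8127 to 8720 with IFN-β, 18.8 and 18.3 times control.

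Uba7, the enzyme that activates Isg15, had 435 and 325 units in control. It had 1766, 1602 and 1552 units with IFN-λ2 and 1753, 1980 and 1982 with IFN-β. Control 2 was above control 3, and the treated groups overlapped at replicate 1. The change was 4.35-fold with IFN-λ2, with a 95% interval from 3.48 to 5.45, and 5.06-fold with IFN-β, from 4.04 to 6.33 (adjusted p = 0.000137 and 0.000126 from limma).

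Ube2l6, the conjugating enzyme that passes Isg15 from Uba7 to the ligase, had 554 and 444 units in control. It had 1962, 2034 and 2194 units with IFN-λ2 and 1750, 1804 and 1906 with IFN-β. Each IFN-λ2 array was above each IFN-β array. IFN-λ2 raised it 4.16-fold, and IFN-β 3.67-fold (adjusted p = 5.47e-05 and 0.000127 from limma). A further probe of the array, at chr2:84650257-84650316 on mm9, is named only by an Ensembl transcript that the annotation of the Ube2l6 probe also lists, and it was not counted among the members. It had 30.4 and 29.7 units in control, 479, 401 and 460 with IFN-λ2, and 360, 369 and 410 with IFN-β. These are changes of 14.8-fold and 12.6-fold, which are 3.57 and 3.44 times those of the named probe, with p = 0.1 for both by a two-sided exact permutation test over arrays, the smallest that 3 against 2 arrays allow. With a floor of 50 units its log2 change with IFN-λ2 was 3.16 in place of 3.89, and with normexp background correction 2.54.

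Herc6, which in mice takes the place of the human ligase HERC5 in ISG15 conjugation, had 379 and 373 units in control by probe 1. It had 1026, 928 and 1055 units with IFN-λ2 and 1111, 1031 and 1192 with IFN-β. The change was 2.66-fold and 2.95-fold (adjusted p = 0.000137 and 0.000125 from limma), the smallest among the 7 probes with either cytokine. By probe 2 it had 78.5 and 76.8 units in control, 432, 443 and 461 with IFN-λ2, and 300.1, 307 and 327 with IFN-β. Here every IFN-λ2 array was above every IFN-β array, and the change was 5.73-fold and 4.01-fold (adjusted p = 3.04e-06 and 1.13e-05 from limma).

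Usp18, the protease that removes Isg15, had 4771 and 3541 units in control. It had 56004, 57408 and 54658 units with IFN-λ2 and 46391, 50859 and 48916 with IFN-β. The IFN-λ2 arrays lay above the IFN-β arrays without overlap. The log2 change was 3.77 with IFN-λ2, with a 95% interval from 3.47 to 4.07, and 3.57 with IFN-β, from 3.27 to 3.87 (adjusted p = 5.52e-06 and 1.13e-05 from limma).

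**Figure D1:**
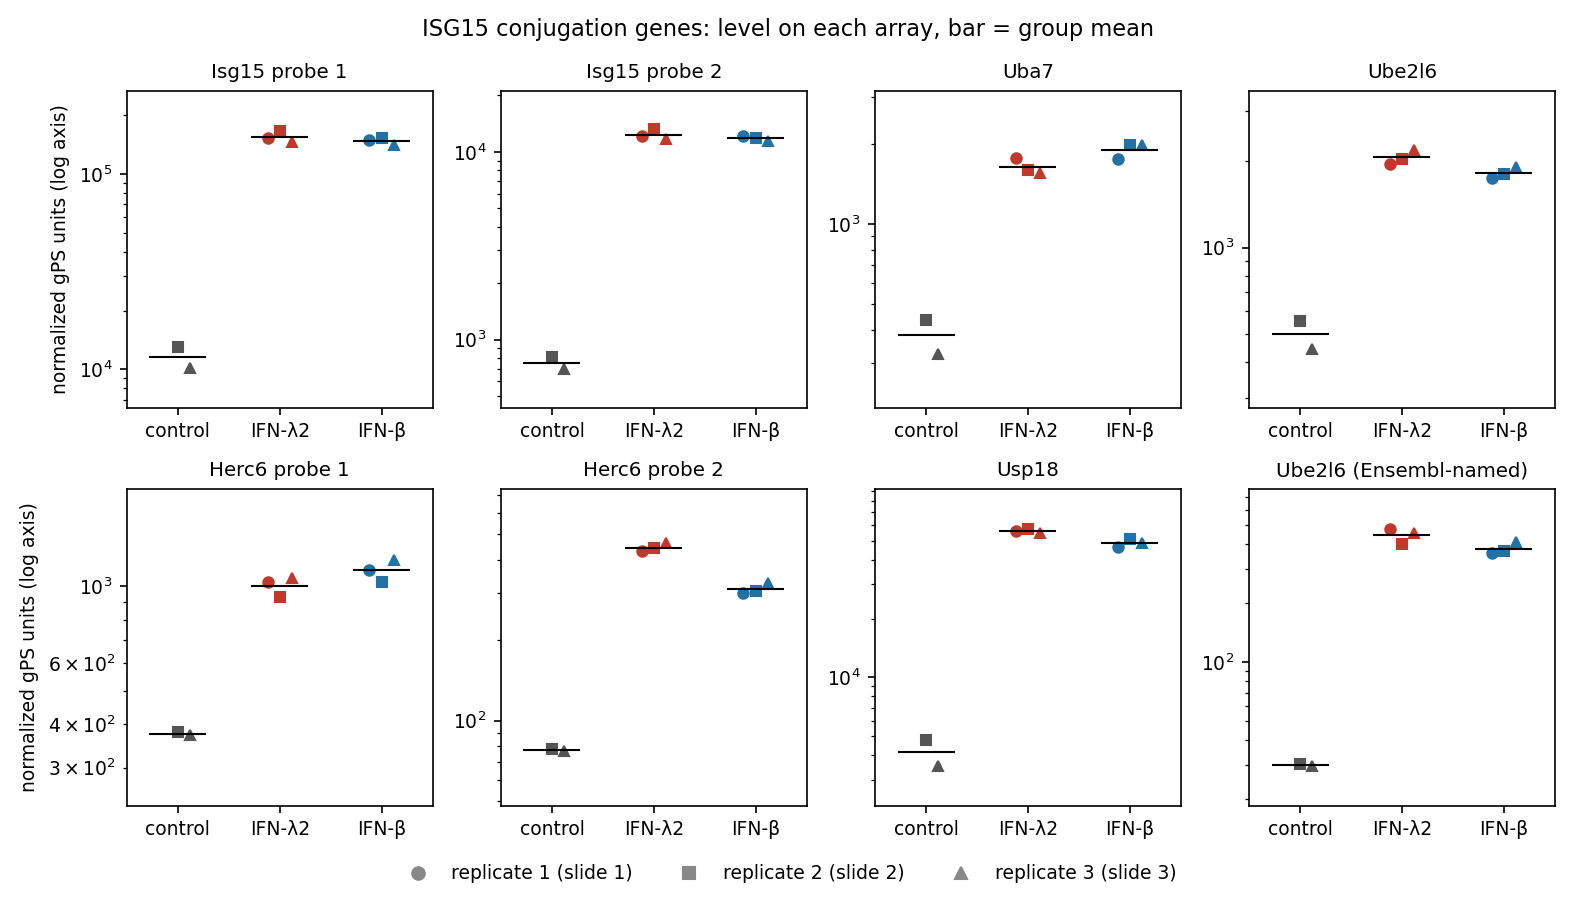
Level of each probe on each array in normalized gPS units (log axis, a separate scale for each panel) for control (2 arrays), IFN-λ2 and IFN-β (3 arrays each), with the marker giving the replicate and the bar the group mean. In all panels the treated arrays lie above both control arrays, and Herc6 probe 2 shows IFN-λ2 at 432 to 461 units above IFN-β at 300.1 to 327.

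By the probes that carry their names, the members differed in the size of their response. Isg15 and Usp18 rose by 11.8-fold to 16.4-fold, and Uba7, Ube2l6 and Herc6 by 2.66-fold to 5.73-fold. For these probes the 95% intervals of the first 2 genes did not overlap those of the other 3 with either cytokine. The intervals measure the spread between arrays and not that between probes of a gene. With IFN-λ2 the changes of 2 probes differed 3.57 times for Ube2l6 and 2.15 times for Herc6. The interval of the Ensembl-named Ube2l6 probe with IFN-λ2, from 12.6-fold to 17.5-fold, overlapped that of Usp18, from 11.1-fold to 16.8-fold. The probe of Ube2l6 named by its Ensembl transcript had log2 changes of 3.89 and 3.66, near those of the first 2 genes, but 2.54 and 2.29 with normexp background correction, where it no longer lay with them. That correction adds an offset of 50 to every signal, which shrinks the change of a probe as dim in control as this one, so that the size of its response was not settled. Among all probes tested, 0.150% had a larger log2 change with IFN-λ2 than Isg15 probe 2, 0.223% than Usp18 and 0.227% than Isg15 probe 1, compared with 0.604% for Herc6 probe 2, 0.820% for Uba7, 0.882% for Ube2l6 and 1.68% for Herc6 probe 1. With IFN-β these shares were, in the same order, 0.0385%, 0.127%, 0.112%, 0.516%, 0.412%, 0.562% and 0.732%.

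**Figure D2:**
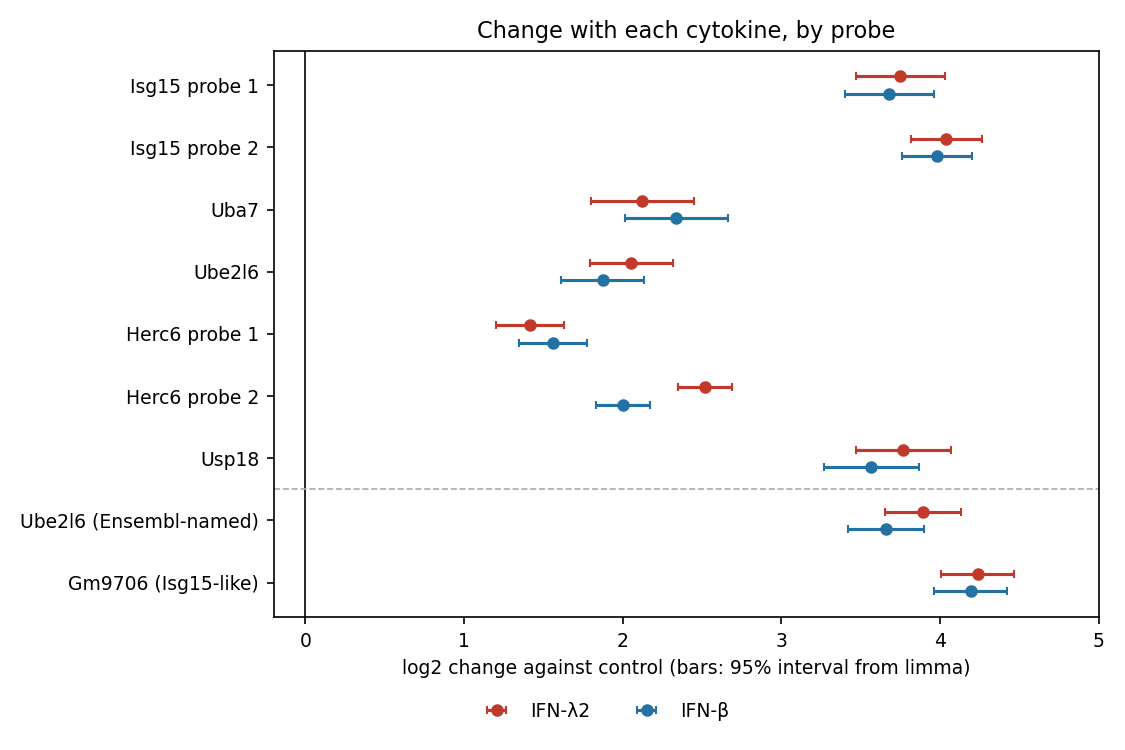
Log2 change against control with IFN-λ2 and IFN-β for the 7 probes of the members and, under the dashed line, the Ensembl-named Ube2l6 probe and Gm9706, with bars for the 95% interval from limma. Isg15 and Usp18 lie between 3.57 and 4.04, the other members between 1.41 and 2.52.

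The control arrays differed from each other for some members. Control 2 exceeded control 3 by 0.42 on the log2 scale for Uba7, 0.43 for Usp18, 0.35 for Isg15 probe 1, 0.32 for Ube2l6 and 0.22 for Isg15 probe 2, and by 0.023 and 0.031 for the Herc6 probes. A larger difference in that direction, control 2 above control 3, was found in 5.54% of all probes for Uba7 and in 5.23% for Usp18. Within slide 2 the log2 difference of Usp18 from control was 3.59 after IFN-λ2 and 3.41 after IFN-β. Within slide 3 these differences were 3.95 and 3.79. The smallest difference from control on one slide was that of Herc6 probe 1, 1.29 with IFN-λ2 on slide 2.

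The last comparison asked whether the cytokines differed for the members at these doses, which are in different units. Only 1 of the 7 probes was called, Herc6 probe 2, which was 1.43-fold higher with IFN-λ2, a log2 difference of 0.52 ± 0.064 (standard error, adjusted p = 0.00372 from limma). It lies under the 2-fold limit that the methods also set, and their 2-group test with its limits on p and fold called 0 of the 7 probes, against 0.767% of all probes called higher. At an adjusted p under 0.05 alone, that test called 1 of the 7, Herc6 probe 2, against 970 of 25937 probes called higher. Across all probes limma called 5.53% higher and 5.68% lower with IFN-λ2. The call also passed when replicate number entered the fit as a block (adjusted p = 0.0155 from limma), and the difference was 0.53, 0.53 and 0.50 within slides 1, 2 and 3.

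The other Herc6 probe differed the other way, by -0.15 on the log2 scale, with a 95% interval from -0.34 to 0.046 (adjusted p = 0.313 from limma). Within slides 1, 2 and 3 it was lower with IFN-λ2 by differences of -0.11, -0.15 and -0.18. Within an array, the log2 value of probe 2 minus that of probe 1 was 0.66 larger after IFN-λ2 than after IFN-β, with an SD over 3 arrays of 0.093 and 0.074, and a two-sided exact permutation test gave p = 0.1, the smallest that 3 against 3 arrays allow. The 2 probes of the gene thus do not give a single answer for Herc6, and the difference of probe 2 cannot be assigned to the whole gene.

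For the remaining members the interval of the difference contained 0. The log2 difference, IFN-λ2 minus IFN-β, was 0.068 for Isg15 probe 1, with a 95% interval from -0.18 to 0.32, and 0.057 for probe 2, from -0.14 to 0.26 (adjusted p = 0.746 and 0.731 from limma). For Uba7 it was -0.22, from -0.51 to 0.075 (adjusted p = 0.325 from limma), for Ube2l6 0.18, from -0.053 to 0.41 (adjusted p = 0.306 from limma), and for Usp18 0.20, from -0.065 to 0.47 (adjusted p = 0.316 from limma). As ratios of IFN-λ2 over IFN-β, the limits of these intervals lay between 0.79 and 1.38 for Isg15, Ube2l6, Usp18 and Herc6 probe 1, while that of Uba7 reached down to 0.70.

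By order of the group means, control was lowest for all 7 probes. IFN-λ2 was highest for both Isg15 probes, Ube2l6, Herc6 probe 2 and Usp18, and IFN-β for Uba7 and Herc6 probe 1, and of these neighbouring groups the cytokines differed beyond their spread for Herc6 probe 2 by the test. The arrays of the cytokines did not overlap, with IFN-λ2 higher, for Herc6 probe 2, Ube2l6 and Usp18, 3 of 7 probes, which is the case for 16.0% of all probes, and 16.3% were separated with IFN-λ2 lower. Within each of the 3 slides Usp18 was higher with IFN-λ2, by 0.27, 0.17 and 0.16, and so was Ube2l6, by 0.17, 0.17 and 0.20. Uba7 differed by 0.011 on slide 1 and by -0.31 and -0.35 on slides 2 and 3. The Ensembl-named Ube2l6 probe was higher with IFN-λ2 by 0.41, 0.12 and 0.16 on the log2 scale (adjusted p = 0.165 from limma). Its 95% interval, from 0.018 to 0.45, did not contain 0, unlike that of the named Ube2l6 probe. These intervals are not adjusted for the number of probes tested.

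**Figure D3:**
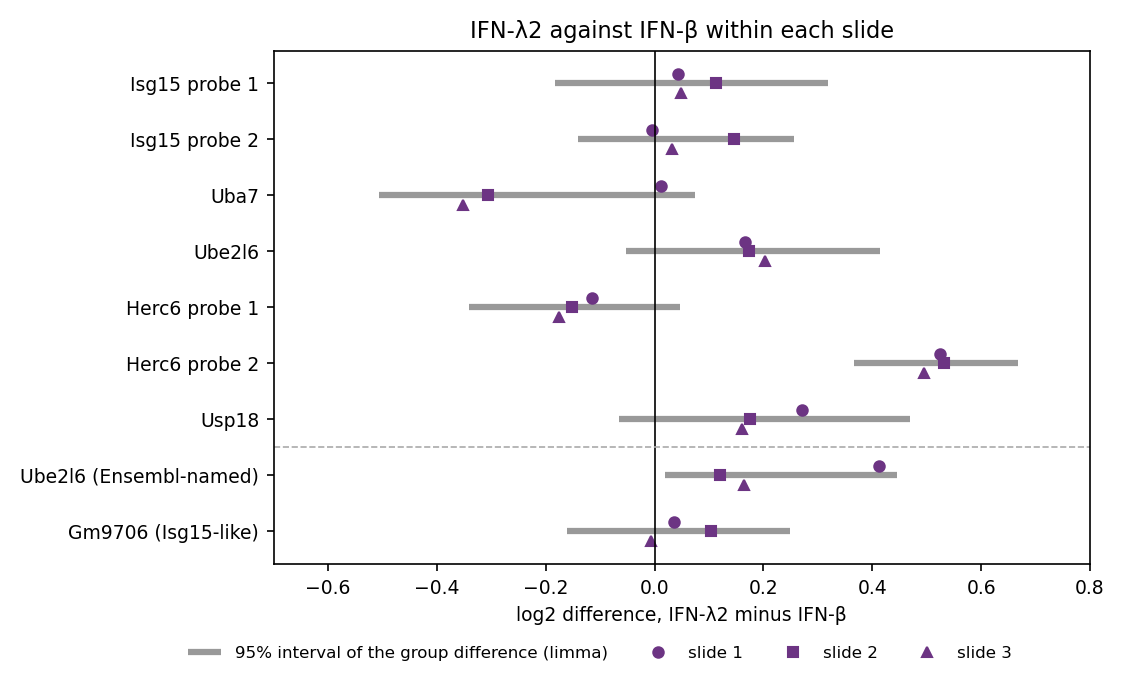
Log2 value after IFN-λ2 minus that after IFN-β on the same slide (markers) with the 95% interval of the group difference from limma (grey), for the members and, under the dashed line, the other 2 probes. The 3 slides lie between 0.50 and 0.53 for Herc6 probe 2 and between -0.18 and -0.11 for Herc6 probe 1.

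Relatives of the members show how far the response extended across the neighbouring enzyme families. Genes are given by the probe with the highest mean signal. The counts are read against the shares of all probes called, which were 10.0% higher and 8.55% lower with IFN-λ2 and 1.44% higher with IFN-β. Of the 9 activating enzymes of other modifiers, 1 was lower with IFN-λ2, Nae1, a subunit of the enzyme that activates Nedd8, at 0.75-fold (adjusted p = 0.0178 from limma), which is near the share of all probes, and 0 were called with IFN-β, where 1 had an unadjusted p under 0.05 and 0 passed the methods' 2-group test. Uba1, the main activating enzyme of ubiquitin, differed from control by 0.032 (IFN-λ2) and 0.027 (IFN-β) on the log2 scale (adjusted p = 0.798 and 0.927 from limma), and Uba6, the other enzyme that activates ubiquitin, 0.048 and -0.12 (adjusted p = 0.733 and 0.651 from limma). The median change of the list was 0.034 and -0.039.

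Of 29 conjugating enzymes of other modifiers, 28 were tested, and with IFN-λ2 0 were called higher and 1 lower, both below the shares of all probes. That 1 was Ube2e2, which works with ubiquitin, at 0.80-fold of control (adjusted p = 0.0378 from limma), and it was also lower than with IFN-β (log2 difference -0.34, adjusted p = 0.0293 from limma), the 1 call of 28 there, against 5.68% of all probes called lower. Neither call of Ube2e2 passed the methods' test (adjusted p = 0.109 and 0.0683). None was called with IFN-β by limma, where 3 had an unadjusted p under 0.05 and 0 passed the methods' test. Ube2l3, the closest relative of Ube2l6, had log2 values 0.30 (IFN-λ2) and 0.16 (IFN-β) above control (adjusted p = 0.0561 and 0.532 from limma).

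The 4 other Herc proteins showed changes between -0.052 and 0.21 with either cytokine, and 0 were called by limma, with 0 at an unadjusted p under 0.05 against control and 0 by the methods' test. Herc3, which lies in the same subfamily of small Herc proteins as Herc6, had 747 units in control, 749 with IFN-λ2 and 864 with IFN-β (log2 changes of 0.00058 and 0.21, adjusted p = 1 and 0.457 from limma). Herc4 had changes of 0.0078 and 0.077 (adjusted p = 0.977 and 0.854 from limma). Of the other ligases described for Isg15, Trim25, which also activates the sensor Ddx58, was higher by 2.90-fold after IFN-λ2 and by 2.55-fold after IFN-β (adjusted p = 4.92e-05 and 0.000134 from limma), and the methods' test gave it an adjusted p of 0.0226 and 0.0506. Arih1 had log2 changes of 0.065 and -0.021 (adjusted p = 0.690 and 0.967 from limma).

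Of 39 other deubiquitinases of the Usp family, 38 were tested, 5 were higher and 1 lower with IFN-λ2, and 1 was higher with IFN-β. The 5 higher of 38 are near the share of all probes and the 1 lower is below it, and none of the 6 calls with IFN-λ2, of the 1 with IFN-β and of the 1 between the cytokines passed the methods' test, which itself called 3 other genes of the list with IFN-λ2, Usp30, Usp4 and Usp5 (adjusted p = 0.0184, 0.0254 and 0.0484 from that test, named after their values were seen). Usp25 was called with both, with log2 changes of 0.68 and 0.57 (adjusted p = 0.00476 and 0.0441 from limma). Usp36, a nucleolar protease, rose 1.49-fold with IFN-λ2 (adjusted p = 0.0243 from limma) and was the 1 member of the list called between the cytokines (1.41-fold, adjusted p = 0.0381 from limma). Usp37 and Usp12 rose 1.32-fold and 1.28-fold with IFN-λ2 (adjusted p = 0.0264 and 0.0377 from limma). The median log2 change of the list was -0.022 with IFN-λ2 and 0.038 with IFN-β, so that Usp18, at 13.6-fold and 11.8-fold, lay far outside the range of -0.65 to 0.68 that its family spanned on the log2 scale with IFN-λ2.

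Of 14 ubiquitin genes and other ubiquitin-like modifiers, 13 were tested. Atg12, the modifier of the autophagy pathway, rose 1.27-fold with IFN-λ2 (adjusted p = 0.0192 from limma, 0.0798 by the methods' test), the 1 call of 13, near the share of all probes, and 0 of 13 were called with IFN-β by limma, at an unadjusted p under 0.05 or by the methods' test. The range of log2 changes was -0.11 to 0.34 with IFN-λ2 and -0.10 to 0.18 with IFN-β, against 3.75 and 3.68 for Isg15 probe 1.

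Among 15 genes whose proteins are known to carry Isg15, 5 were higher and 1 lower with IFN-λ2, and 4 were higher with IFN-β. The methods' test kept 5 of the 6 calls with IFN-λ2 and 0 of the 4 with IFN-β. Mx1, an antiviral GTPase, rose 29.6-fold after IFN-λ2 and 15.1-fold after IFN-β (adjusted p = 4.83e-06 and 1.97e-05 from limma), and its level after IFN-λ2 was 1.95 times that after IFN-β (adjusted p = 0.00707 from limma). Ddx58, a sensor of viral RNA, rose 7.14-fold and 6.73-fold, and Eif2ak2, the RNA-dependent kinase PKR, 4.35-fold and 4.21-fold. These 3 genes had adjusted p-values of at most 4.55e-05 from limma in both comparisons. The list's median log2 change was 0.095 and 0.092, so that most of these targets had no called change of their RNA. Of 8 genes for the receptors and the partners of Usp18 at the receptor, Stat2, which brings Usp18 to Ifnar2, was called with both cytokines, at 4.47-fold and 3.32-fold (adjusted p = 7.38e-05 and 0.000392 from limma), and none of the 4 receptor chains was. By the methods' test Stat2 passed with IFN-λ2 (adjusted p = 0.0267) but not with IFN-β (adjusted p = 0.134). Itgal and Itgb2, which form the receptor for secreted Isg15 on leukocytes, had at most 50.9 units on average in any group, and neither was called by limma, while 1 of them had an unadjusted p under 0.05 with IFN-λ2 and 0 passed the methods' test.

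**Figure D4:**
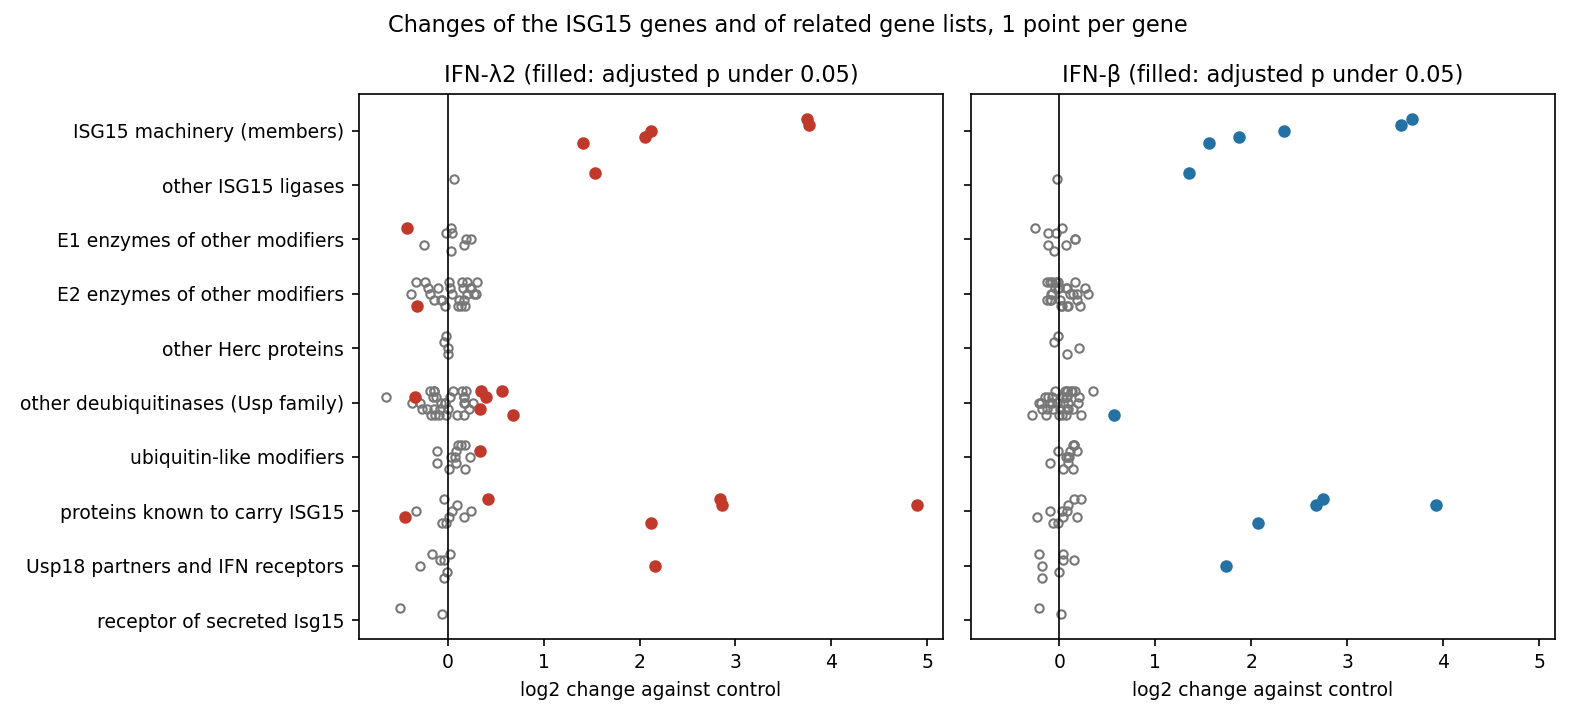
Log2 change against control with IFN-λ2 (left) and IFN-β (right), 1 point per gene, for the 5 members and 9 lists of related genes, filled where the adjusted p from limma was under 0.05. The members lie between 1.41 and 3.77 with IFN-λ2, and the activating and conjugating enzymes of other modifiers between -0.42 and 0.30.

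The genes most like each member were found by the root mean square difference of their log2 values over the 8 arrays, each probe centred on its own mean, among 20295 probes well above background on all treated arrays. The measure is a description over arrays that share their normalization. Each member was taken by its probe with the highest mean signal. Among the members themselves the measure was lowest for Isg15 and Usp18, at 0.083, followed by Uba7 and Ube2l6 at 0.23, and highest for Isg15 and Herc6 at 0.98. It depends on the size of the change, which differed between the probes of Herc6 and of Ube2l6. The other probes of these genes were not placed by it. By these probes Isg15 and Usp18 were closer to each other than to any other gene compared. For Isg15 the margin was narrow, 0.083 against 0.085 for LOC100048309, and was not tested. With the members and the Ensembl-named Ube2l6 probe left out, Isg15 probe 1 was closest to LOC100048309, described in the array files as similar to Ifi204 (0.085), then Ifi204 (0.11) and Ifi203 (0.14). Usp18 was then closest to Parp14 (0.10), LOC100048309 (0.11) and Ifi211 (0.12). Uba7 was closest to Ifih1 (0.13), Bst2 (0.15) and Eif2ak2 (0.15), and Ube2l6 to Irf9 (0.085), Oas1c (0.086) and Eif2ak2 (0.11). Herc6 probe 1 was closest to Fbxw17 (0.070), C2 (0.11) and Tdrd7 (0.12).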

How the data were processed

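Gene expression was measured on 8 one-color Agilent arrays. Per the labels, Agilent Feature Extraction 10.7.3.1 read the scans. The deposited intensity of each feature already has its background subtracted, and a table of processed intensities was deposited too. The deposited table equals the scanner's processed signal times a constant per array. Features that were flagged, marked as outliers, more than 1.42 interquartile ranges from the other copies on the chip or with a pixel coefficient of variation over 0.5 were left out. Copies of a probe were combined by their geometric mean. Each array was brought to a 75th percentile of 1500 (factors of 0.691 to 0.769), floored at 15 and converted to log2, and probes above 15 on at least 2 arrays were kept. The number of arrays limits the precision.

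Group means were fitted to all 8 arrays without a block in limma 3.58.1 (R 4.3.3), with Benjamini-Hochberg adjustment at 0.05. The 2-group test of the methods, with a pooled variance for each probe, was run at an adjusted p under 0.05, without their limits on unadjusted p and fold unless stated. The script was tested on simulated data. Tables and exact permutation tests used scipy 1.17.1, pandas 2.3.3 and numpy 2.4.6 under Python 3.11.15. Genes were named through a RefSeq table of GRCm38.p6, by accession for 26412 probes, symbol for 3854, synonym for 735 and another accession for 20, and 8408 go by the array design. All probes of the members are reported. Of each list, at most 4 genes past the threshold with the largest change are named, plus Uba1, Uba6, Ube2l3, Herc3, Herc4, Trim25 and Arih1, and 3 genes outside the members that resemble each member most. The members and lists were chosen with earlier results of these data known.

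Slide, scan run and replicate number are the same block. IFN-λ2 and IFN-β arrays with the same number share a slide. Their deviations from the group means correlated at 0.178, 0.255 and 0.297 across probes. Arrays with different numbers were not compared in this way. For control the correlations were between -0.057 and 0.10. The labels and the methods name different RNA extraction reagents. The RT-PCR and in vivo measurements of the study were not analysed here. The values of 1 gene that the naming rule calls for are not reported here.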

Additional observations from a re-analysis of the deposited data

Results flagged for a closer look

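Herc6 probe 2 responded more to IFN-λ2 than to IFN-β, with a log2 difference between the changes of 0.52 (adjusted p = 0.00372 from limma), higher in all 3 slides. It was marked because the direct comparison of the cytokines passed the test, which no other probe of the members did. The groups hold 2 or 3 arrays each, too few to test a single array for standing apart.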

How the results depend on the processing

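For the 7 probes, 20 alternatives of processing, samples or test kept direction and call in 140 of 140 values for IFN-λ2 against control and in 140 of 140 for IFN-λ2 against IFN-β. For IFN-β against control 136 of 140 did. The alternatives are not independent of each other. Leaving out an IFN-β array cannot change the estimate of IFN-λ2 against control. For IFN-λ2 against IFN-β, leaving out a control array is the same fit as using only the 2 groups compared. The methods' 2-group test, which does not share the spread across probes and groups and was taken here at an adjusted p under 0.05 alone, called 3 of 7 probes there in place of 7, with adjusted p-values of 0.104 for Uba7, 0.0899 for Ube2l6, 0.0542 for Herc6 probe 1 and 0.0519 for Usp18, and its count over all probes fell from 374 to 84 higher. With the limits that the methods also set, an unadjusted p of 0.001 and a 2-fold change, which were added after seeing the data, it called 6 probes with IFN-λ2 (all but Uba7), 3 with IFN-β and 0 between the cytokines, against 1.17%, 0.299% and 0.767% of all probes called higher. Leaving out each array gave 7, 7 and 1 called probes in the 3 comparisons. With the replicate number as a block, 7, 7 and 1 probes were called as well, and no call changed. Slide and scan run are that same block and were not run apart. The adjusted p of Herc6 probe 2 between the cytokines ranged from 0.00143 to 0.0212. Taking the other probe of Herc6 turned its difference between the cytokines from -0.15 to 0.52. Gm9706 had a difference of -0.0144 without IFN-λ2 replicate 2, and between -0.0144 and 0.0771 over all arrays left out. The Ensembl-named probe of Ube2l6 was set beside the named one after seeing the data. The counts over all probes moved more, from 2604 higher with IFN-λ2 to between 983 and 3095, and between the cytokines from 1436 higher and 1476 lower to 1000 and 391 with normexp (offset 50). Single arrays moved them too. Between the cytokines the counts were 784 higher and 668 lower without IFN-λ2 replicate 1, 1043 and 919 without IFN-λ2 replicate 2, 945 and 1007 without IFN-λ2 replicate 3, and 866 and 778 without IFN-β replicate 3. With IFN-λ2 against control they were 1563 higher without IFN-λ2 replicate 1 and 1712 without IFN-λ2 replicate 3. The 2220 lower fell to 1133 without IFN-λ2 replicate 1, and to 635 both with normexp and with the methods' 2-group test. Leaving out either control array lowered both counts too. The causes were not tested.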
